A study of Homo sapiens with 4 samples.

Results

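The Krüppel-like factor (KLF) transcripts described here are those of KLF2, KLF3, KLF4, KLF5, KLF6, KLF9, KLF10, KLF11, KLF13 and KLF16, found by current gene symbol in the deposited table, which gave 10 genes of 63241. They were measured by poly(A) RNA sequencing in 22Rv1 cells treated for 12 h with 40 nM JMC45 (2 libraries) and in 22Rv1 cells given the DMSO vehicle for 12 h (2 libraries). 22Rv1 is a human line of castration-resistant prostate cancer, and no genetic change beyond those of the line is labelled in either group. JMC45 is labelled as a compound targeting CDK9 and the series title calls it a degrader of that kinase, under the name D45. Separate cultures are not mentioned for the libraries of a group, and a p-value here therefore reflects the spread among these 4 libraries alone, possibly a technical one.

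KLF proteins are transcription factors that bind GC-rich and CACCC-containing DNA through C2H2 zinc fingers at their C terminus, and they are named after the Drosophila gene Krüppel. The rest of the protein differs between members and sets the partners. KLF2, KLF4, KLF5 and KLF6 can recruit acetyltransferases, KLF3 binds the CtBP corepressor, and KLF9, KLF10, KLF11, KLF13 and KLF16 bind the Sin3 corepressor. CDK9 is the kinase of P-TEFb, which releases paused RNA polymerase II into elongation. Several KLF genes are induced quickly by growth factors, serum or stress.

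Levels are in TPM, which is scaled by transcript length within a library, so they can be set side by side between genes. Changes are JMC45 minus vehicle on the log2(TPM + 1) scale, on which changes of scarce transcripts come out too small, and "rose" and "fell" are used where limma gave an adjusted p under 0.05 over the 14018 genes whose TPM averaged 1 or more. Most genes had lower TPM in JMC45: 80.7% of tested genes were called lower and 4.25% higher, with a median log2 change of -1.10. Because that shift rests on the scaling, changes on rescaled values (median-of-ratios scaling, which sets the median near 0, at -0.016) are given beside those on TPM. There, 35.5% of genes were called lower and 34.9% higher. Neither scale is absolute. On rescaled values a gene that rose changed more favourably than the median gene, which need not mean more transcript per cell. The mitochondrially encoded transcripts took 26.6% and 29.3% of TPM in the JMC45 libraries and 20.4% and 20.1% in the vehicle libraries. Where holding their sum equal between libraries, or leaving them out, changes a call or a direction, that value is given beside the gene. The luminal prostate markers KLK3, HOXB13, FOXA1, EPCAM, KRT8 and KRT18 all had a mean TPM of at least 1. None of 6 endothelial and none of 6 leukocyte markers did, with summed TPM of 0.05 and 0.09 in JMC45 and 0.23 and 0.12 in vehicle for the endothelial list and of 1.82 to 2.03 in JMC45 and 2.06 to 2.25 in vehicle for the leukocyte list. Of 5 fibroblast markers, LUM and COL1A1 reached that level, and the list summed to 6.24 and 6.89 TPM in JMC45 and to 7.18 and 7.68 TPM in vehicle.

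The KLF transcripts did not move as one. Of the 10, 9 were tested, and 6 of them fell (KLF4, KLF5, KLF9, KLF11, KLF13 and KLF16), 1 rose (KLF10) and 2 did not pass the test (KLF3 and KLF6). With 80.7% of all tested genes called lower, 6 of 9 is no excess of decreases. The median of the 9 was -1.25, which is 0.15 below the median of all tested genes. On rescaled values 4 fell (KLF4, KLF5, KLF9 and KLF11), 3 rose (KLF3, KLF6 and KLF10) and 2 were not called (KLF13 and KLF16). In raw TPM both JMC45 libraries lay below both vehicle libraries for 6 of the 9 tested members, against 85.7% of tested genes. KLF2 was below the minimum mean TPM of the test. In these bulk libraries fewer transcripts per cell cannot be told apart from fewer cells that hold them.

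**Figure D1:**
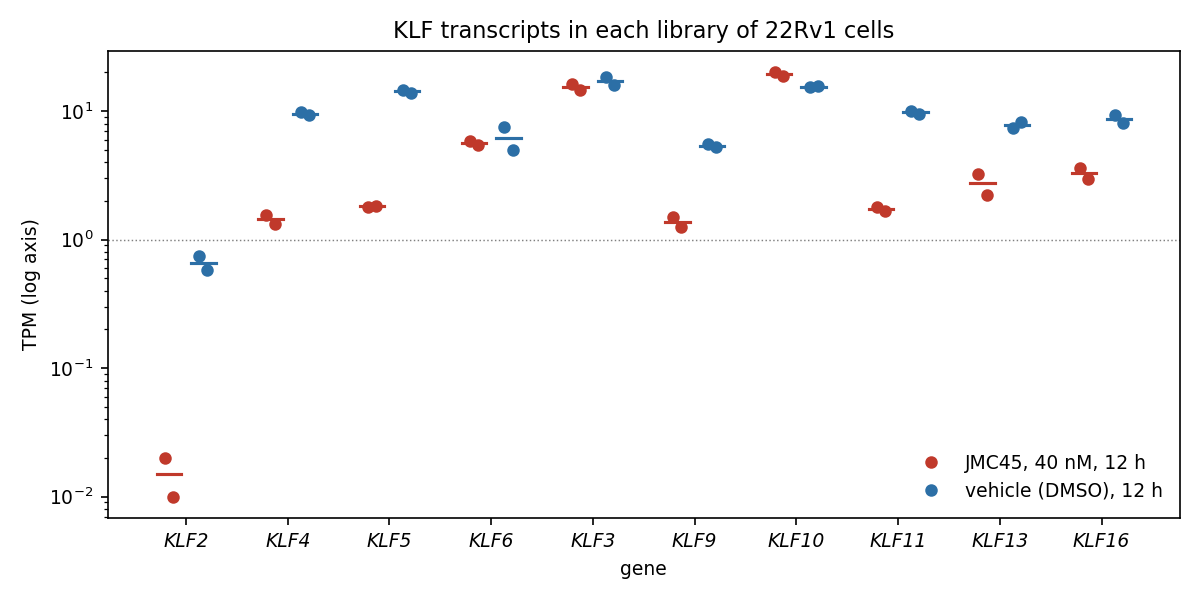
TPM (log axis) of each KLF gene in the 2 JMC45 libraries (red, left) and the 2 vehicle libraries (blue, right), with bars at the group means and a dotted line at 1 TPM. The JMC45 points lie below the vehicle points for 7 genes and above them for KLF10, and they overlap for KLF3 and KLF6.

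In JMC45 the order was headed by KLF10 at 19.5 ± 0.884 TPM, KLF3 at 15.3 ± 1.18 and KLF6 at 5.68 ± 0.318, whose libraries did not overlap with each other or with the genes below them. In vehicle cells KLF3 was the most abundant, at 17.2 ± 1.64 TPM (SD, n = 2), followed by KLF10 at 15.4 ± 0.233 and KLF5 at 14.2 ± 0.559, and KLF2 was the least abundant. From KLF11 downward through KLF4, KLF16, KLF13, KLF6 and KLF9, each neighbour in the order overlapped the next in its library values. KLF5 ranked 6 in JMC45, at 1.81 ± 0.0212 TPM, and 3 in vehicle, and KLF6 ranked 3 in JMC45 and 8 in vehicle.

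Promoter sequence was taken from a set of RefSeq promoters (GRCh38.p14), which held 8 of the 10 genes and lacked KLF3 and KLF10. It is shown for KLF4 and KLF9, which both fell, and for KLF6, which did not pass the test, to set their base composition side by side, a choice made after their values and windows were seen. Each is the part of the 250 bases before the RefSeq start that lies upstream of every GENCODE 29 transcript start of the gene, read on the strand of the gene, at chr9:107489770-107490019 (minus strand) for KLF4, chr9:70414658-70414907 (minus strand) for KLF9 and chr10:3785282-3785459 (minus strand) for KLF6. Capitals mark GGGCGG, the GC box, and CCAAT, on either strand.
KLF4: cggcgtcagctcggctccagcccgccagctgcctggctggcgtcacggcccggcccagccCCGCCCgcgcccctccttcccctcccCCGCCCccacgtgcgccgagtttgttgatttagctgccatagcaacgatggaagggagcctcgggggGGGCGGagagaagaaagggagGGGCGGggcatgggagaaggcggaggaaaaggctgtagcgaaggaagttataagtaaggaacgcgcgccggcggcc
KLF9: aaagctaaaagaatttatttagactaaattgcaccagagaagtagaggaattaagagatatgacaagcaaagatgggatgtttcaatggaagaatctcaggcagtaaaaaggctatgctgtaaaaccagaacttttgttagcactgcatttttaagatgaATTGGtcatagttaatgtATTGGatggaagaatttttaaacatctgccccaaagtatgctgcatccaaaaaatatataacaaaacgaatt
KLF6: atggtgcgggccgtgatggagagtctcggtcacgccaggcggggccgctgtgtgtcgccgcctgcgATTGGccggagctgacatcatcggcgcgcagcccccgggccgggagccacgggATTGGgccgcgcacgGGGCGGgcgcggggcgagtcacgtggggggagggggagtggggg
Over the whole 250 bases the KLF4 window was 69.2% G and C, the KLF6 window 72.4% and the KLF9 window 32.4%, against a median of 58.0% over 35116 RefSeq windows of that length. GGGCGG was present in 7 of the 8 KLF windows, all but that of KLF9, and in 42.6% of all windows. CCAAT was present in 4 of 8 and in 32.0% of all, and CACCC in 2 of 8 and in 54.7%. TATAAA was in none of the 8 and in 10.7% of all, and the E-box CACGTG was in 3 of 8 (KLF4, KLF6 and KLF11) and in 6.34% of all. The windows of KLF5 and KLF11 lie downstream of the first GENCODE 29 start of those genes. A match is a description of the letters and not of a bound site. The KLF6 window held 2 GC boxes, as did those of KLF5 and KLF11.

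Among the members that recruit acetyltransferases, KLF4 and KLF5 fell and KLF6 did not pass the test. KLF5 (ENSG00000102554), a factor of proliferating epithelium, had 1.80 and 1.83 TPM in JMC45, against 14.61 and 13.82 TPM in vehicle. Both JMC45 libraries lay far below both vehicle libraries, and the mean TPM was 7.83-fold lower in JMC45. The log2 change, -2.43 (SE 0.12, limma adjusted p = 1.47e-05), was the largest decrease among the 9 tested members, and 6.88% of all tested genes had a lower value. On rescaled values the change was -1.34.

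KLF4 (ENSG00000136826), one of the factors used to reprogram somatic cells to pluripotency, had 1.55 and 1.32 TPM in JMC45, against 9.78 and 9.28 TPM in vehicle. The groups did not overlap, and its log2 change was -2.11 (SE 0.13, limma adjusted p = 2.89e-05), or -1.08 on rescaled values. KLF2 (ENSG00000127528), known for its role in endothelial cells and resting T cells, had 0.02 and 0.01 TPM in JMC45, against 0.74 and 0.58 TPM in vehicle. It was low in both groups, at or near the last deposited decimal in JMC45, and a fold of such values is not given. With no filter on low values it was called lower, by 0.71 on the log2(TPM + 1) scale (limma adjusted p = 0.00433). The pseudogenes KLF2P1 and KLF2P4 were listed at more than KLF2 itself in every library. KLF2P1 had 3.20 and 2.28 TPM in JMC45 and 3.01 and 2.11 TPM in vehicle, and KLF2P4 had 2.91 and 2.52 TPM in JMC45 and 2.06 and 1.97 TPM in vehicle, so the level of KLF2 is uncertain where reads could be shared.

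KLF6 (ENSG00000067082), described as a growth suppressor in prostate cancer, had 5.90 and 5.45 TPM in JMC45, against 7.45 and 4.97 TPM in vehicle. The JMC45 values lay between the vehicle values. Its log2 change of -0.09 did not pass (limma adjusted p = 0.668), with a 95% interval of -0.55 to 0.37, and it was 0.16 without vehicle replicate 1 and 0.037 without the mitochondrially encoded genes, not called in either. That interval lies above the median change of all genes, and 88.4% of tested genes had a lower change. On rescaled values KLF6 was called higher, at 1.06 (limma adjusted p = 0.000556), and with the summed TPM of mitochondrially encoded genes held equal it was called lower, at -0.48 (limma adjusted p = 0.0396).

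KLF3 (ENSG00000109787), a repressor that acts through CtBP, was likewise close in both groups. It had 16.15 and 14.48 TPM in JMC45, against 18.37 and 16.05 TPM in vehicle, and the groups overlapped. The log2 change was -0.16 (95% interval -0.43 to 0.11, limma adjusted p = 0.220), and 1.11 on rescaled values, where it was called higher (limma adjusted p = 0.000101). With the mitochondrial sum held equal it was called lower, at -0.59 (limma adjusted p = 0.00400). Its antisense gene KLF3-AS1 stayed below the minimum of the test, at 0.49 and 0.59 TPM in JMC45 and 1.11 and 0.56 TPM in vehicle. If the quantification ignored strand, which the sources used here do not state, reads of that gene and of KLF3 cannot be told apart where they overlap.

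**Figure D2:**
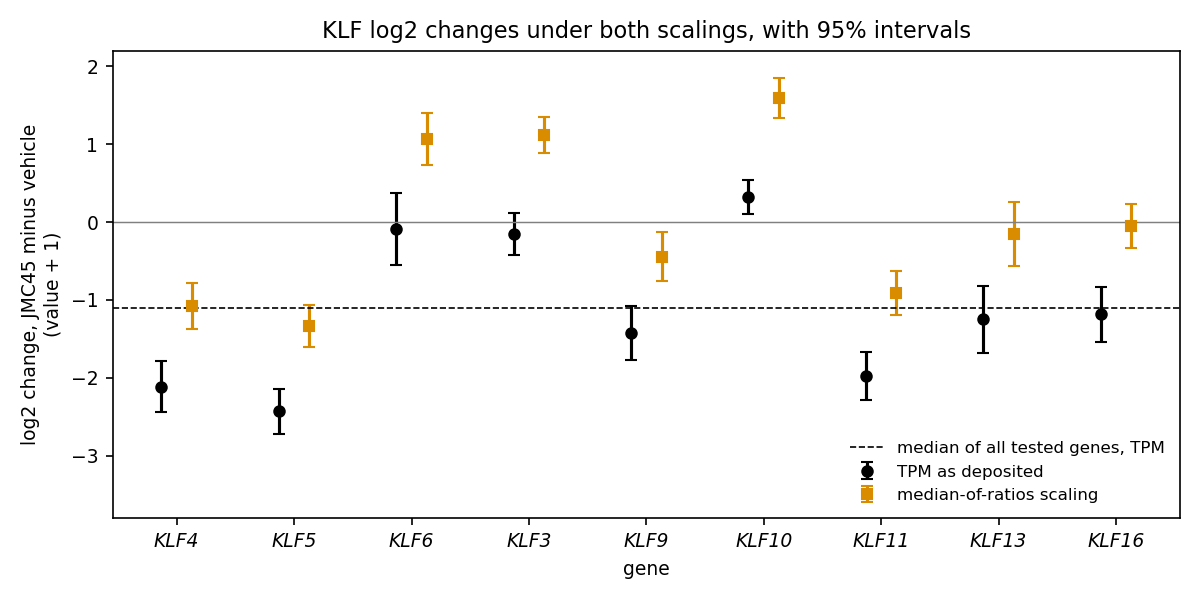
Log2 change (JMC45 minus vehicle, value + 1) of the 9 tested KLF genes on TPM as deposited (black circles) and on rescaled values (orange squares), with 95% intervals from limma. The dashed line marks the median of all tested genes on TPM (-1.10). On TPM the whole intervals of KLF5, KLF4 and KLF11 lie below it, and those of KLF6, KLF3 and KLF10 above it. The points of KLF9, KLF13 and KLF16 lie below it with intervals that cross it.

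On TPM the Sin3-binding members gave 4 decreases and the only increase. Over all tested genes 80.7% were called lower and 4.25% higher. On rescaled values 2 Sin3-binding members fell and 1 rose, against 35.5% and 34.9% of all genes. KLF10 (ENSG00000155090), induced by TGF-beta and also called TIEG1, had 20.14 and 18.89 TPM in JMC45, against 15.27 and 15.60 TPM in vehicle. Both JMC45 libraries lay above both vehicle libraries, a position that 6.28% of all tested genes shared. The log2 change was 0.32 (SE 0.09, limma adjusted p = 0.0144), or 1.26 times the mean TPM of vehicle, and 95.8% of tested genes had a lower change. The call rests on 2 libraries: without JMC45 replicate 1 it was 0.28 (limma adjusted p = 0.0895) and without vehicle replicate 1 it was 0.30 (limma adjusted p = 0.0577). It was 1.59 on rescaled values and -0.12 when the summed TPM of mitochondrially encoded genes was held equal, so its direction on TPM rests on the scaling.

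KLF11 (ENSG00000172059), the TGF-beta-inducible factor most closely related to KLF10, went the other way. It had 1.80 and 1.67 TPM in JMC45, against 10.08 and 9.45 TPM in vehicle. Its mean TPM was 5.63-fold lower in JMC45, and the log2 value was -1.98 (SE 0.13, limma adjusted p = 3.08e-05), or -0.91 on rescaled values. KLF9 (ENSG00000119138), a glucocorticoid-responsive and clock-linked factor, had 1.51 and 1.25 TPM in JMC45, against 5.54 and 5.22 TPM in vehicle. The groups did not overlap, and the log2 value was -1.42 (SE 0.14, limma adjusted p = 0.000160). It was -0.45 on rescaled values (limma adjusted p = 0.0195) and was not called after quantile normalization (-0.20).

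KLF13 and KLF16 moved with the bulk of genes. KLF13 (ENSG00000169926), first described as an activator of the chemokine gene CCL5 in T cells, had 3.26 and 2.21 TPM in JMC45, against 7.44 and 8.19 TPM in vehicle. KLF16 (ENSG00000129911), a repressor of the Sin3-binding group, had 3.59 and 2.97 TPM in JMC45, against 9.36 and 8.10 TPM in vehicle. Neither overlapped between groups, and their log2 changes were -1.25 and -1.19 (limma adjusted p = 0.000710 and 0.000376). On rescaled values KLF13 was at -0.15 (95% interval -0.56 to 0.26) and KLF16 at -0.05 (95% interval -0.34 to 0.23), and neither was called.

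**Figure D3:**
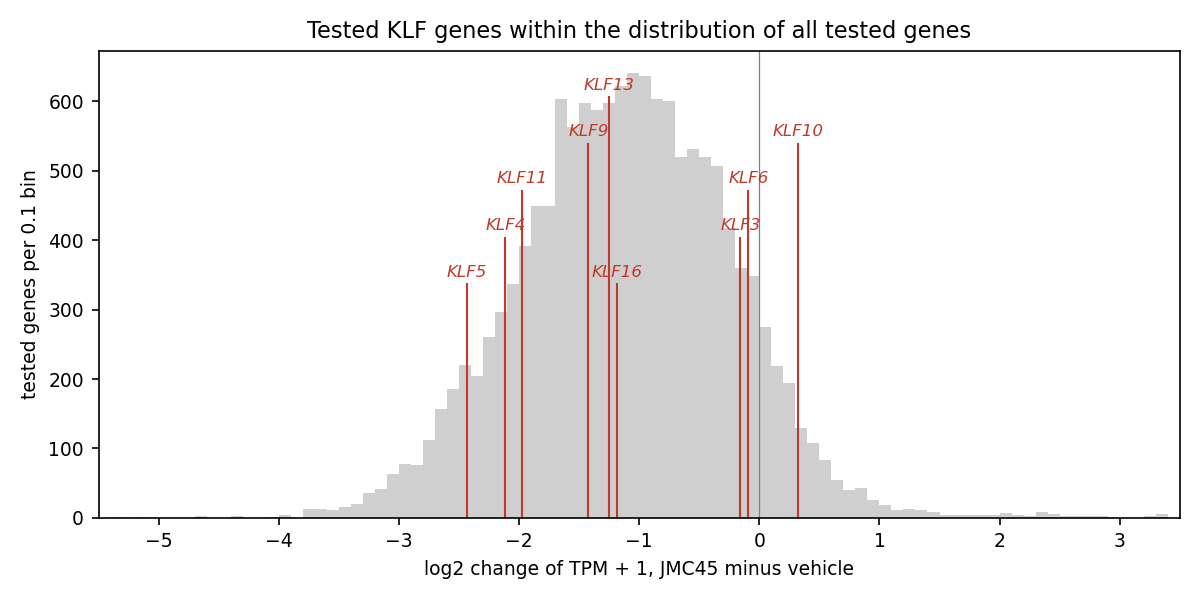
Histogram of the log2 change (TPM + 1, JMC45 minus vehicle) of all 14018 tested genes in bins of 0.1, with red lines at the 9 tested KLF genes (line height has no meaning). KLF13 (-1.25) and KLF16 (-1.19) stand near the middle, KLF5 (-2.43) in the left flank and KLF10 (0.32) in the right flank.

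The proportions between KLF transcripts inside a library stay the same when all values of that library are multiplied by a common factor. The summed TPM of the 10 genes was 55.72 and 50.08 in JMC45, against 98.64 and 91.26 in vehicle. KLF10 made up 36.1% and 37.7% of that sum in JMC45, against 15.5% and 17.1% in vehicle, and KLF3 made up 28.98% and 28.91% in JMC45, against 18.6% and 17.6% in vehicle. KLF6 also took a larger share, with 10.6% and 10.9% in JMC45 and 7.55% and 5.45% in vehicle. KLF5 took a smaller one, with 3.23% and 3.65% in JMC45 and 14.8% and 15.1% in vehicle, as did KLF4 with 2.78% and 2.64% in JMC45 and 9.91% and 10.2% in vehicle. KLF10 had 11.2 and 10.3 times the TPM of KLF5 in the JMC45 libraries and 1.05 and 1.13 times in the vehicle libraries. Between the paralogues KLF10 and KLF11 that ratio was 11.2 and 11.3 in JMC45 and 1.51 and 1.65 in vehicle. These shares are descriptions with no test.

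**Figure D4:**
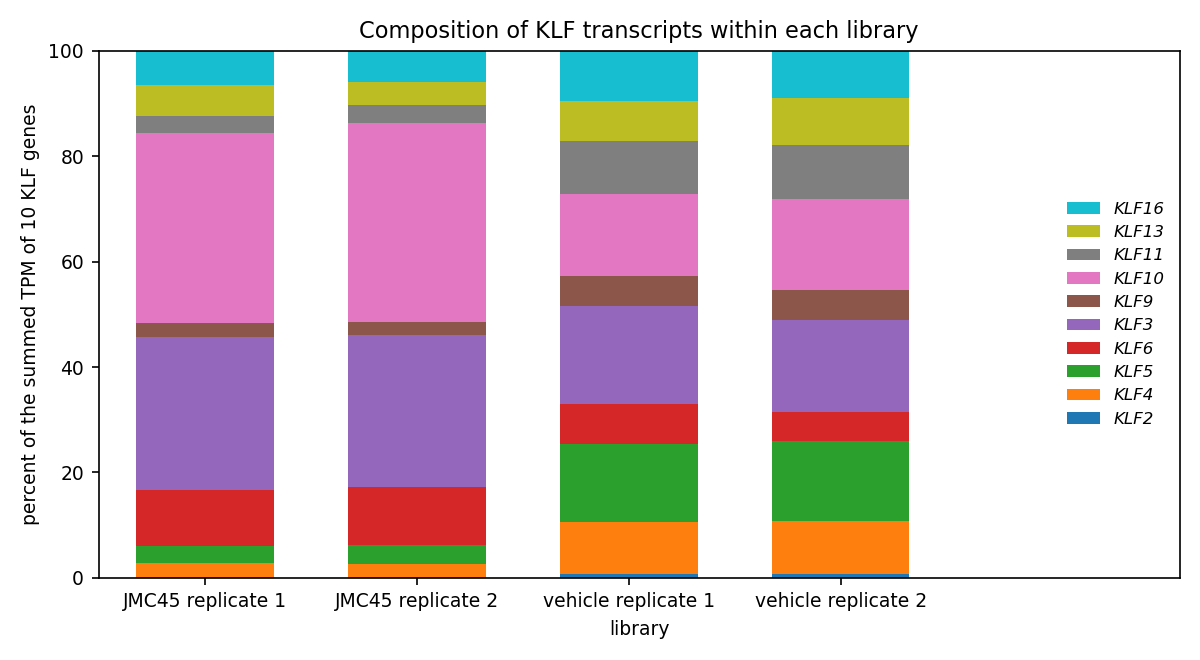
Share of each KLF gene (percent) in the summed TPM of the 10 genes, for each JMC45 library (left) and each vehicle library (right). KLF10 and KLF3 together fill most of the JMC45 bars, whereas KLF4, KLF5 and KLF11 are thinner there than in the vehicle bars.

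Gene spans overlapped between the tested members that fell and those that did not, and an effect of length was not tested. In GENCODE 29 the span was 7.12 kb for KLF10, 9.29 kb for KLF6 and 36.8 kb for KLF3. Among the genes that fell it was 5.63 kb for KLF4, 11.2 kb for KLF16 and 12.0 kb for KLF11. It was 22.6 kb for KLF5, 30.0 kb for KLF9 and 108.8 kb for KLF13, which also fell. Among tested genes with a GENCODE 29 model the median log2 change was -1.03 for spans under 10 kb (3472 genes), -1.20 for 10 to 50 kb (5508 genes) and -1.06 for over 50 kb (4495 genes). Of these, 2415, 4705 and 3789 genes were called lower on TPM, in the same order. The genes whose 4 values lay nearest to those of KLF10, the most abundant member over all libraries, were MDK, PEBP1 and RPL8, by Euclidean distance of log2(TPM + 1) minus the vehicle mean over 4 libraries (0.02, 0.02 and 0.04). With 4 libraries such nearness says little more than that their log2 changes were of like size, at 0.32, 0.32 and 0.31.

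The remaining KLF genes and the SP genes, which share the zinc finger type, had no increases among the few that were tested. Of 8 other KLF genes only KLF7 and KLF15 had enough signal to be tested, and both fell. KLF15, a metabolic regulator in liver and muscle, had 0.34 and 0.29 TPM in JMC45, against 9.01 and 8.30 TPM in vehicle, which is -2.88 on the log2 scale (limma adjusted p = 1.43e-05), or -2.09 when rescaled. KLF15 averaged less than 1 TPM in JMC45 and met the minimum only through vehicle, so the filter fixed its direction. KLF7 had 1.84 and 1.82 TPM in JMC45, against 9.60 and 6.34 TPM in vehicle (-1.64 with limma adjusted p = 0.000390, or -0.58 when rescaled). Of 9 SP genes 4 were tested, and all 4 fell under both scalings: SP1 (-2.33 on TPM), SP4 (-1.92), SP3 (-1.76) and SP2 (-1.56). Over all tested genes 80.7% were called lower and 4.25% higher on TPM, against 35.5% lower and 34.9% higher on rescaled values. After quantile normalization SP2 (-0.19) and KLF7 (-0.33) were not called. The median of the SP genes was -1.84, 0.74 below that of all tested genes. Whether the KLF and SP genes differ from each other was not tested.

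Among the partners of KLF proteins, 9 of 11 cofactor genes fell on TPM (median log2 change -1.38), close to the 80.7% of all tested genes called lower. On rescaled values 4 fell and 4 rose, close to the 35.5% lower and 34.9% higher of all genes. The corepressor scaffold SIN3A, a partner of the Sin3-binding KLF proteins, had 2.59 and 2.77 TPM in JMC45, against 34.48 and 30.30 TPM in vehicle. Its log2 change was -3.18 (limma adjusted p = 1.01e-05), and the Sin3-associated SAP30 was at -3.01. The acetyltransferase genes EP300 and CREBBP were at -2.51 and -2.16. All 4 also fell on rescaled values. The exceptions, named after their values were seen, were HDAC1, a histone deacetylase that rose to 255.11 and 261.99 TPM in JMC45, against 221.08 and 224.81 TPM in vehicle (0.21, limma adjusted p = 0.0115), and the acetyltransferase KAT2B (-0.22, limma adjusted p = 0.163). The HDAC1 call was lost without JMC45 replicate 2 (0.19) and without the intensity trend, and when the mitochondrial sum was held equal both HDAC1 (-0.25) and KAT2B (-0.61) were called lower. The other Sin3 gene, SIN3B, also named after its values were seen, differed from SIN3A. It had 7.68 and 7.34 TPM in JMC45, against 13.63 and 10.63 TPM in vehicle. SIN3B fell on TPM (-0.62) and rose on rescaled values (0.61).

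All 7 ubiquitin ligase genes reported to act on KLF proteins fell on TPM (median log2 change -1.32), where 80.7% of all tested genes were called lower. On rescaled values 3 fell and 2 rose, against 35.5% lower and 34.9% higher over all genes. SIAH1, a ligase for KLF10, had 4.73 and 3.62 TPM in JMC45, against 24.40 and 24.29 TPM in vehicle (log2 change -2.30, limma adjusted p = 2.27e-05). WWP1, a ligase for KLF5, was at -1.76, FBXO32 at -1.60 and VHL at -1.32, and VHL was not called on rescaled values (-0.02). FBXO32 had 0.50 and 0.35 TPM in JMC45, against 3.45 and 3.19 TPM in vehicle. All 12 tested genes of 14 that act upstream of KLF genes fell on TPM (median log2 change -1.30), against 80.7% of all genes, and 4 of the 12 did so on rescaled values, against 35.5% of all genes. These 4, with their log2 changes on TPM, were MAPK7 (-3.06), the ERK5 kinase that drives KLF2 and KLF4 in endothelium, the TGF-beta mediators SMAD4 (-2.52) and TGFBR1 (-1.92), and the clock gene CLOCK (-1.77). MAPK7 had 0.46 and 0.27 TPM in JMC45, against 11.37 and 9.49 TPM in vehicle. Of the 12, MAPK7, TGFBR1 and BMAL1 averaged less than 1 TPM in JMC45. They met the minimum only through vehicle, as FBXO32 did, so the filter fixed the direction of these genes.

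Genes reported elsewhere as KLF targets were mixed. Of 12, 7 were tested, of which 4 fell and 1 rose on TPM, and on rescaled values 2 fell and 5 rose. Over all tested genes 80.7% were called lower and 4.25% higher on TPM, and 35.5% lower and 34.9% higher on rescaled values. KRT19, a keratin activated by KLF4 in epithelium, had 11.64 and 11.32 TPM in JMC45, against 127.73 and 131.36 TPM in vehicle (log2 change -3.39, limma adjusted p = 9.20e-06), and the cyclin CCND1 was at -1.92. The cell cycle inhibitor CDKN1A, which KLF4 and KLF6 can activate, had 39.86 and 34.36 TPM in JMC45, against 20.23 and 20.22 TPM in vehicle (0.84, limma adjusted p = 0.000297). CDH1 was at -0.64 on TPM and at 0.70 on rescaled values. Of the KLF2 targets listed, named here after their values were seen, THBD and S1PR1 were at 0.04 TPM or less in every library, whereas NOS3 had 46.42 and 48.63 TPM in JMC45, against 69.88 and 70.95 TPM in vehicle. NOS3 fell on TPM (-0.56, limma adjusted p = 0.000364) and rose on rescaled values (0.77).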

How the data were processed

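The authors deposited TPM for each Ensembl gene and library, as the column names state. Tools listed in the submitters' processing notes are StringTie, HISAT2 and fastp, with neither roles nor versions, while build and annotation were not given in the sources used here. TPM keeps no depth, so depth per library is unknown and no counting intervals are given. Columns named CTL were taken as vehicle, by number.

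log2(TPM + 1) of 14018 genes, those averaging 1 TPM or more, was fitted with limma 3.58.1 in R 4.3.3 (two-sided, intensity trend, no replicate block). Benjamini-Hochberg adjustment ran over all genes, with a threshold of 0.05. The fit was tested on simulated data in which few genes changed, in both directions. Such data cannot show how the fit does under a shift of most genes. Summaries used matplotlib 3.10.9, numpy 2.4.6, pandas 2.3.3 and Python 3.11.15. Symbols matched 62666 of 63241 genes. 50 lines without values were left out. The members, lists and alternatives were chosen with earlier results of these data known. The text names all members and up to 4 genes of each other list with the largest change past the threshold, and every KLF and SP gene could be named. HDAC1, KAT2B, SIN3B, BMAL1, THBD, S1PR1 and NOS3 were added after their values were seen. GENCODE 29 gave gene spans, and RefSeq (GRCh38.p14) gave promoters, at the start nearest the principal GENCODE transcript, a rule chosen after the windows were seen. Alternatives were another pseudocount, filters, scalings, no trend, the replicate block and each library left out.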

Additional observations from a re-analysis of the deposited data

How the results depend on the processing

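KLF4, KLF5 and KLF11 were called lower under all 13 alternatives. Of 116 values of single KLF members under the alternatives, 100 kept their direction and call. The filters, the fit without trend and the replicate block leave the log2 change itself as it was. Direction could not turn there, so this tally overstates how stable the values are. Under median-of-ratios scaling 3 members were called higher, and over all genes 4888 were called higher and 4981 lower. There KLF3 (1.11), KLF6 (1.06), CDH1 (0.70), NOS3 (0.77) and KAT2B (0.93) turned direction. Quantile normalization gave 3 members higher and 3 lower, with 4716 genes higher and 4603 lower and a median log2 change of 0.018. Under it KLF3 (1.09), KLF6 (1.24), KLF13 (0.10), KLF16 (0.19), CDH1 (0.17), NOS3 (0.29) and KAT2B (1.11) were above 0. With the mitochondrially encoded total held equal 8 members were called lower, and over all genes 12685 were called lower and 181 higher. No member was called higher (0 by limma at an adjusted p under 0.05, and 0 at an unadjusted p under 0.05). Under that setting KLF10 (-0.12) and HDAC1 (-0.25) were below 0. KLF6 was at 0.037 without the mitochondrially encoded genes. With each library left out in turn, KLF6 ran from -0.34 to 0.16. The KLF10 call was lost without JMC45 replicate 1 (0.28) and without vehicle replicate 1 (0.30). In those fits the lone library is assumed to vary like the others. The cause of these differences was not tested. The replicate number used as a block gave 6 members lower and 1 higher, with 613 genes higher and 11380 lower. The deviations of same-numbered libraries correlated at r = -0.05 across genes. The labels do not state whether same-numbered libraries belong together, and this correlation cannot decide it. Depth is unknown, and 2 libraries per group limit what small changes can be detected.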
